A study of Mus musculus with 12 samples.

Results

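The genes of glycolysis, of pyruvate entry into the mitochondria and of the TCA cycle were followed in mouse CD4 and CD8 T cells that had been cultured with or without linoleic acid, a dietary fatty acid with a pair of double bonds. The list held 41 genes, 20 of glycolysis and its transporters, 6 of pyruvate entry and 15 of the TCA cycle, and a gene was followed through the probe set that carries its symbol alone. Such a probe set was found for 38 of the 41, among 22180 named genes on the array. Gpi1, Aldoa and Eno1 had none and were not analysed here, and Pfkm (mean log2 4.20) fell below the filter on low values (log2 4.28), so 37 members were among the 14323 genes tested.

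The study asked whether the 2 T cell types respond differently to linoleic acid. Whole splenocytes spent 24 h in culture with linoleic acid at 50 µM or without it, and CD4+ and CD8+ T cells were then sorted from the mixed culture, so by this protocol the sorted cells had met the fatty acid in the presence of the other spleen cells; the series' design text speaks of isolated T cells instead. Total RNA went onto 12 MoGene-2_0-st arrays from Affymetrix with 1 label, 3 for each cell type in control culture and 3 for each with linoleic acid. No genetic change and no further treatment is named for any group; mouse strain, age and any stimulation of the cells are not stated in the labels. Replicates are numbered 1 to 3 without a statement that they are separate animals or cultures, so a p-value here measures the spread between arrays, which may be technical.

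Glycolysis splits glucose into pyruvate in the cytosol. Pyruvate is either reduced to lactate by lactate dehydrogenase and carried out of the cell by monocarboxylate transporters, or it enters the mitochondria and becomes acetyl-CoA through the pyruvate dehydrogenase complex, which pyruvate dehydrogenase kinases switch off. The TCA cycle oxidizes acetyl-CoA, which also comes from fatty acids; resting T cells rely mainly on this oxidation, and activated T cells raise glucose uptake and glycolysis under regulators that include Myc and Hif1a.

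All values are log2 intensities, in which a difference of 1 is a doubling, and the level of one gene is not set against the level of another. The sort was visible in the co-receptors: Cd4 measured 10.77 to 11.19 in CD4 arrays and 5.12 to 6.48 in CD8 arrays, and Cd8a 10.98 to 11.29 in CD8 arrays and 5.01 to 6.82 in CD4 arrays. General T cell markers, 7 of 10 measured, had means of 9.56 or more on each of the 12 arrays. B cell markers, 13 of 15 measured, had means of 6.22 to 7.46 in CD4 control arrays, 6.25 to 7.63 in CD4 linoleic acid arrays, 5.79 to 7.11 in CD8 control arrays and 5.79 to 7.14 in CD8 linoleic acid arrays, with the lowest value of each group in replicate 1. Myeloid markers, 16 of 16 measured, ranged from 5.32 to 6.34 over all arrays. Replicate 3 of CD8 linoleic acid stood apart, with the highest score on the first principal component (36.1, against at most 14.9 elsewhere) and the lowest value of the 12 arrays for 27.7% of all genes tested and for 12 of the 37 members. The printed values that moved most without it are given both ways.

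CD8 and CD4 T cells differed in 4 of the 37 members when both cultures were averaged over all 12 arrays. Idh3a, Slc16a1 and Pdk3 were higher in CD8 T cells and Ldhb was lower, at an adjusted p under 0.05 (limma, Benjamini-Hochberg over 14323 genes). In the same comparison 674 genes passed, 4.71% of those tested (1.95% higher and 2.76% lower in CD8), and the members' count is to be read against that share. With the replicate number as a block 9.23% of genes and 5 members passed, Pkm being the added one. At an unadjusted p under 0.05 there were 9 members, against 14.4% of all genes (10 and 20.2% with the block). The members as a whole had no common side, with 20 higher and 17 lower and a median difference of 0.01, beside a median of -0.01 over all genes. Without CD8 linoleic acid replicate 3 the tally was 23 higher and 14 lower, with a median of 0.05 beside 0.00 over all genes, and the same number of members, 4, passed. In sorted bulk RNA, a change in the share of T cell subsets and a change in RNA per cell cannot be told apart.

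Of the 4 genes, the RefSeq promoter table (GRCm38.p6) holds 3, and the 250 bases before each start site are shown because these members differed between the cell types. Capitals mark the letters of any of 5 motifs searched on both strands: the E-box CACGTG, the hypoxia response element core ACGTG, which every E-box of these letters also contains, the RUNX core TGTGGT, the GC box GGGCGG and the CCAAT box CCAAT.
Slc16a1, chr3:104638414-104638663, plus strand: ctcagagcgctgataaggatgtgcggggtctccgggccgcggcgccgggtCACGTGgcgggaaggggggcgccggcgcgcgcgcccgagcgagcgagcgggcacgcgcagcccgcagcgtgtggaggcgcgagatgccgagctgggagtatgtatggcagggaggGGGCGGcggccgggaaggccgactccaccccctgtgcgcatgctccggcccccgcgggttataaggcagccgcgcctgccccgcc
Ldhb, chr6:142507958-142508207, minus strand: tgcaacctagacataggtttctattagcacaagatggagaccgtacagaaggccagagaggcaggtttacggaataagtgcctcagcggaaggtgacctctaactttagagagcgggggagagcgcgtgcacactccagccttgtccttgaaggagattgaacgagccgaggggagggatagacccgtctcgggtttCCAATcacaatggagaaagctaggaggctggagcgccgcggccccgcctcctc
Pdk3, chrX:93832151-93832400, minus strand: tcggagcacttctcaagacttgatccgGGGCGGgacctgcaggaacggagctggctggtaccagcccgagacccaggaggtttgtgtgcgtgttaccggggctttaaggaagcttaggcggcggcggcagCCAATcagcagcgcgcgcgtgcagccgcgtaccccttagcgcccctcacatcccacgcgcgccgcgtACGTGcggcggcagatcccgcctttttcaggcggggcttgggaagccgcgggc
The Slc16a1 window holds an E-box 200 bases and a GC box 85 bases before the start. The Pdk3 window holds ACGTG at 53, a CCAAT box at 120 and a GC box at 223 bases, and the Ldhb window holds a CCAAT box at 53 bases. TGTGGT is in none of the 3 windows. Over 45 windows of 34 of the 37 members, the shares with a match were 13.3% for CACGTG, 42.2% for ACGTG, 15.6% for TGTGGT, 48.9% for GGGCGG and 40% for CCAAT. Over 32851 windows of the table they were 6.02%, 16.6%, 14%, 32.7% and 33.8%. The member windows were also richer in G and C, with a median of 61.6% against 52.4%, and some genes have several windows. A match is a description of these letters and not of a bound site.

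Idh3a encodes the catalytic subunit of the NAD-dependent isocitrate dehydrogenase of the TCA cycle. It measured 6.88, 6.77 and 7.11 in CD4 control arrays, 6.82, 6.70 and 6.74 in CD4 linoleic acid arrays, 7.28, 7.44 and 7.50 in CD8 control arrays and 7.26, 7.33 and 7.31 in CD8 linoleic acid arrays. Every CD8 array lay above every CD4 array, which held for 2 of the 37 members (Pkm, in the other direction, was the second) and for 4.15% of all genes. The averaged log2 difference was 0.51 ± 0.08 (SE, 6 arrays per cell type, 1.43-fold, 95% confidence interval 0.34 to 0.69, limma adjusted p = 0.0016). The exact two-sided permutation test gave p = 0.005, the smallest that 400 relabellings within cultures allow. Exact permutation p values here and below are unadjusted, and the genes were picked from these same arrays. The difference stayed past the threshold when any 1 array was left out, and not when the 4 arrays numbered 2 were left out together (adjusted p = 0.166). Idh3b, a regulatory subunit of the same enzyme, differed by 0.15 (interval -0.06 to 0.36) and Idh3g, the other one, by 0.03 (interval -0.13 to 0.20); neither passed.

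Slc16a1 encodes a monocarboxylate transporter that carries lactate and pyruvate across the plasma membrane. It measured 7.32, 7.49 and 8.18 in CD4 control arrays, 7.30, 7.66 and 7.57 in CD4 linoleic acid arrays, 7.92, 8.41 and 8.20 in CD8 control arrays and 8.17, 8.23 and 8.21 in CD8 linoleic acid arrays. The CD4 control arrays were spread, and replicate 3 of them lay within the CD8 range. The averaged difference was 0.60 ± 0.14 (1.52-fold, interval 0.30 to 0.90, limma adjusted p = 0.021, exact permutation p = 0.01), and CD8 was the higher in 6 of 6 same-numbered pairs. The labels do not say whether same-numbered CD4 and CD8 arrays share a source, and their pairing in control culture was left undecided. Such pair counts between the cell types, here and below, therefore only describe the arrays. The share of all genes with 6 of 6 pairs on 1 side was not computed, for this or for linoleic acid. The call ended without CD4 control replicate 1 (limma adjusted p = 0.0507) or 2 (0.0631), CD4 linoleic acid replicate 1 (0.0583), CD8 control replicate 2 (0.0655) or 3 (0.052), CD8 linoleic acid replicate 2 (0.0534), or all arrays numbered 1 (0.0759) or 2 (0.395). Slc16a3, the exporter linked to highly glycolytic cells, lay near the background of the array (group means 4.70 to 4.97, against a 95th percentile of 5.11 for chemosensory receptor genes). It differed by -0.15 (interval -0.33 to 0.02, exact permutation p = 0.015), which did not pass in limma.

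Ldhb encodes the lactate dehydrogenase subunit that favours the conversion of lactate to pyruvate. It measured 6.08, 5.69 and 5.74 in CD4 control arrays, 5.80, 5.60 and 5.42 in CD4 linoleic acid arrays, 5.49, 5.21 and 5.11 in CD8 control arrays and 5.23, 5.30 and 5.18 in CD8 linoleic acid arrays. CD8 was the lower in 6 of 6 same-numbered pairs, and over all arrays the cell types overlapped through CD4 linoleic acid replicate 3 and CD8 control replicate 1. The CD8 group means of 5.27 in control and 5.24 with linoleic acid lay close to the background level of 5.11, so the size of the difference is uncertain. The averaged difference was -0.47 ± 0.10 (1.38-fold lower, interval -0.69 to -0.25, limma adjusted p = 0.0149, exact permutation p = 0.005). It stayed past the threshold without any 1 array and fell short without all arrays numbered 1 (adjusted p = 0.0537), 2 (0.236) or 3 (0.0853). Ldha, the subunit that favours lactate, had group means of 5.99 to 6.11 and differed by -0.04 (interval -0.23 to 0.14). Mouse Ldha and Gapdh have processed pseudogenes, and whether these probe sets also detect such copies was not tested. Whether the difference of Ldhb exceeds that of Ldha was not tested.

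Pdk3 encodes a kinase that inactivates pyruvate dehydrogenase. It measured 5.99, 5.70 and 5.80 in CD4 control arrays, 5.68, 5.82 and 5.66 in CD4 linoleic acid arrays, 6.09, 6.25 and 6.31 in CD8 control arrays and 6.03, 6.13 and 5.90 in CD8 linoleic acid arrays. The cell types did not overlap within a culture, and over both cultures CD4 control replicate 1 lay above the lowest CD8 array. The averaged difference was 0.34 ± 0.09 (1.27-fold, interval 0.16 to 0.52, limma adjusted p = 0.0329; exact permutation p = 0.005), with CD8 higher in 6 of 6 same-numbered pairs. The call held without CD4 control replicate 1, CD8 control replicate 1 or CD8 linoleic acid replicate 3 and ended without any other single array (CD4 control replicate 2, 0.0785, or 3, 0.0738; CD4 linoleic acid replicate 1, 0.0778, 2, 0.0505, or 3, 0.0836; CD8 control replicate 2, 0.0849, or 3, 0.0972; CD8 linoleic acid replicate 1, 0.0523, or 2, 0.0921), without the arrays numbered 1 (0.0687), 2 (0.469) or 3 (0.211), and with no filter on low values (0.0562).

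**Figure D1:**
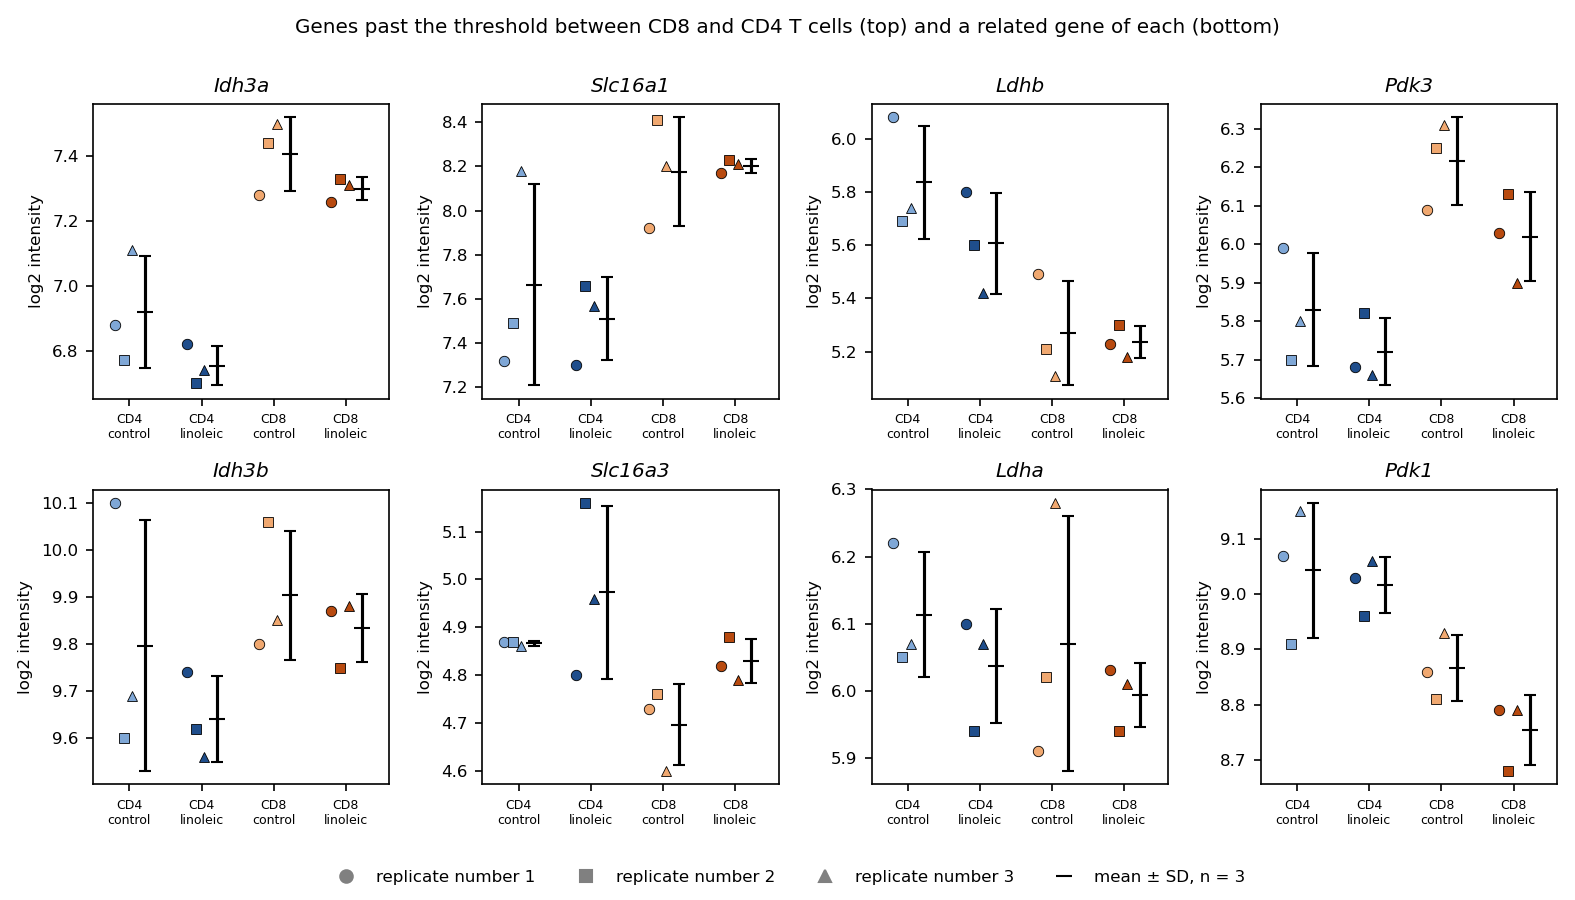
Log2 intensity on each of the 12 arrays for the 4 members past the threshold between CD8 and CD4 T cells (top row) and a related gene of each (bottom row), with the mean ± SD of 3 arrays beside the points; marker shapes give the replicate number and each panel has its own axis range. CD8 arrays of Idh3a lie at 7.26 to 7.50 and CD4 arrays at 6.70 to 7.11, whereas the arrays of Ldha overlap.

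The other pyruvate dehydrogenase kinases did not pass, although Pdk1 did with array weights (adjusted p = 0.025, limma). Pdk1 was the lower in CD8 T cells in 6 of 6 same-numbered pairs, with group means of 9.04 ± 0.12 (SD, n = 3) in control and 9.02 ± 0.05 in treated CD4 T cells, and of 8.87 ± 0.06 and 8.75 ± 0.06 in CD8 T cells. Its averaged difference of -0.22 (interval -0.38 to -0.06) had a limma adjusted p of 0.146 and an exact permutation p of 0.01. Pdk2 was spread, from 4.79 in CD8 linoleic acid replicate 3 to 6.42 in CD4 linoleic acid replicate 1, and differed by -0.04 (interval -0.54 to 0.45), or by 0.19 without CD8 linoleic acid replicate 3. Of the pyruvate dehydrogenase complex itself, Pdha1 and Pdhb, the subunits of its first enzyme, and Dlat, the acetyltransferase, differed by -0.03, -0.03 and 0.11 (-0.10, -0.06 and 0.19 without that array), and none passed.

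Along glycolysis the remaining members did not pass between the cell types. Slc2a3, a glucose transporter of lymphocytes, had group means of 6.81 ± 0.23 in control and 6.82 ± 0.03 in treated CD4 T cells and of 7.10 ± 0.08 and 6.99 ± 0.19 in CD8 T cells, an averaged difference of 0.23 (limma adjusted p = 0.253). Slc2a1, the glucose transporter that activated T cells raise, had 8.24 ± 0.26, 8.22 ± 0.19, 8.30 ± 0.31 and 8.10 ± 0.26 in the same order, a difference of -0.03 (interval -0.31 to 0.25), or 0.04 without CD8 linoleic acid replicate 3. Hk1 and Hk2, the hexokinases that trap glucose in the cell, differed by 0.06 and -0.11 (0.15 and -0.09 without that array). Pkm encodes the pyruvate kinase that makes pyruvate; it measured 9.82 to 10.03 in CD4 and 9.39 to 9.82 in CD8 arrays, which meet only in rounding, CD8 was the lower in 6 of 6 pairs, and its difference of -0.27 (interval -0.47 to -0.08) had a limma adjusted p of 0.127 and an exact permutation p of 0.005. Pfkp, the platelet-type phosphofructokinase, stood at 0.21 and Pgam1, a phosphoglycerate mutase, at 0.25, with adjusted p values of 0.339 and 0.316. Pgam1 has another probe set on the array, and that one gave -0.02 for the same comparison.

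The TCA cycle beyond Idh3a showed small differences between the cell types, from -0.03 to 0.15. Without CD8 linoleic acid replicate 3 they ran from -0.06 for Dld to 0.27 for Ogdh. Cs, the citrate synthase that opens the cycle, differed by 0.12 (interval -0.12 to 0.35), or by 0.22 without that array. The 4 subunits of succinate dehydrogenase, which is also complex II of the respiratory chain, differed by 0.00 for Sdha, -0.01 for Sdhb, -0.01 for Sdhc and 0.10 for Sdhd, each with an interval that holds 0 (0.05, -0.03, 0.08 and 0.06 without that array). Their group means, for control and treated CD4 and then control and treated CD8 T cells, were 9.15, 9.16, 9.26 and 9.05 for Sdha and 7.29, 7.06, 7.21 and 7.11 for Sdhb. For Sdhc they were 7.07, 6.95, 7.13 and 6.87, and for Sdhd 7.81, 7.59, 7.88 and 7.72. The SD of a group was at most 0.18 for Sdha and reached 0.37 for Sdhd.

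B cell markers moved with this comparison, since the 13 measured were all lower in CD8 T cells, at a median difference of -0.45, although in limma 0 passed and 0 had an unadjusted p under 0.05 (9 passed with the block). Myeloid markers were lower in 13 of 15 tested, at a median of -0.07, and 1 passed (5 with the block). Of 5 natural killer cell markers tested, Eomes (1.63, adjusted p = 3.6e-06) and Prf1 (0.68, 0.000518), which cytotoxic CD8 T cells also express, were higher in CD8. Of 3 platelet markers Itgb3 was lower (-1.09, 3.84e-05), and of 7 general T cell markers Thy1 was higher and Cd2, Cd5 and Cd28 were lower (limma, adjusted p from 0.00031 to 0.0228). The part of these markers in the member results was not tested.

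Within control culture 0 of the 37 members passed in limma, against 1.95% of all genes (1.03% higher and 0.929% lower in CD8), and 6 had an unadjusted p under 0.05, against 9.37%. Idh3a came nearest, at 0.49 ± 0.12 (limma adjusted p = 0.0528), followed by Ldhb at -0.57 ± 0.14 (0.0699), Pdk3 at 0.39 ± 0.12 (0.18), Pgam1 at 0.47 ± 0.16 (0.235), Slc16a1 at 0.51 ± 0.20 (0.353) and Slc2a3 at 0.29 ± 0.13 (0.515). The arrays of the cell types did not overlap for 9 members, against 16.1% of all genes: Slc2a3, Pgam1, Pdk3, Cs, Idh3a and Ogdh were higher in CD8 and Pkm, Ldhb and Slc16a3 lower. For Pgam1 this is the probe set of higher mean, and its other one gave -0.05. With the replicate block 2 members passed, Ldhb and Idh3a, against 4.4% of all genes, and 8 had an unadjusted p under 0.05, against 14.5%. Without CD8 linoleic acid replicate 3, which enters through the shared estimate of spread, Idh3a passed (0.49, limma adjusted p = 0.0463). Without CD4 control replicate 3, Idh3a (0.58, limma adjusted p = 0.0356) and Slc16a1 (0.77, 0.035) passed. Cs differed by 0.20, Ogdh, a component of the 2-oxoglutarate dehydrogenase complex, by 0.33, Pkm by -0.27, Slc16a3 by -0.17, Pdk1 by -0.17 and Sucla2, a succinyl-CoA ligase subunit, by -0.15, with adjusted p values between 0.559 and 0.82.

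Within linoleic acid culture 1 of the 37 members passed, against 2.03% of all genes (0.719% higher and 1.31% lower in CD8), and 7 had an unadjusted p under 0.05, against 11.8%. The member that passed was Idh3a, at 0.54 ± 0.12 (interval 0.29 to 0.80, limma adjusted p = 0.0269). It fell short when CD4 linoleic acid replicate 1 (0.0667), 2 (0.143) or 3 (0.0919) or CD8 linoleic acid replicate 2 (0.104) or 3 (0.0611) was left out, without the arrays numbered 1 (0.0976), 2 (0.622) or 3 (0.164), and when the 6 arrays of this culture were fitted alone (0.086). With the replicate number as a block 798 genes (5.57%) passed in place of 291, 7 members had an unadjusted p under 0.05 against 19.1% of all genes, and Slc16a1 passed beside Idh3a (0.69 ± 0.20; limma adjusted p = 0.115 without the block and 0.0135 with it). The arrays did not overlap for 8 members, against 15.3% of all genes: Slc16a1, Pdk3, Idh3a and Idh3b were higher and Pfkl, Pkm, Ldhb and Pdk1 lower in CD8. Pdk3 differed by 0.30, Idh3b by 0.20, Ldhb by -0.37, Pfkl, the liver-type phosphofructokinase, by -0.30, Pkm by -0.28, Pdk1 by -0.27 and Sucla2 by 0.11, with adjusted p values between 0.315 and 0.77. Without CD8 linoleic acid replicate 3, Pfkl stood at -0.20, and 26 members were higher and 11 lower in CD8 in place of 20 and 17 (13 and 2 of the TCA members). The averaged comparison uses the arrays of both cultures and is no independent repeat of either.

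**Figure D2:**
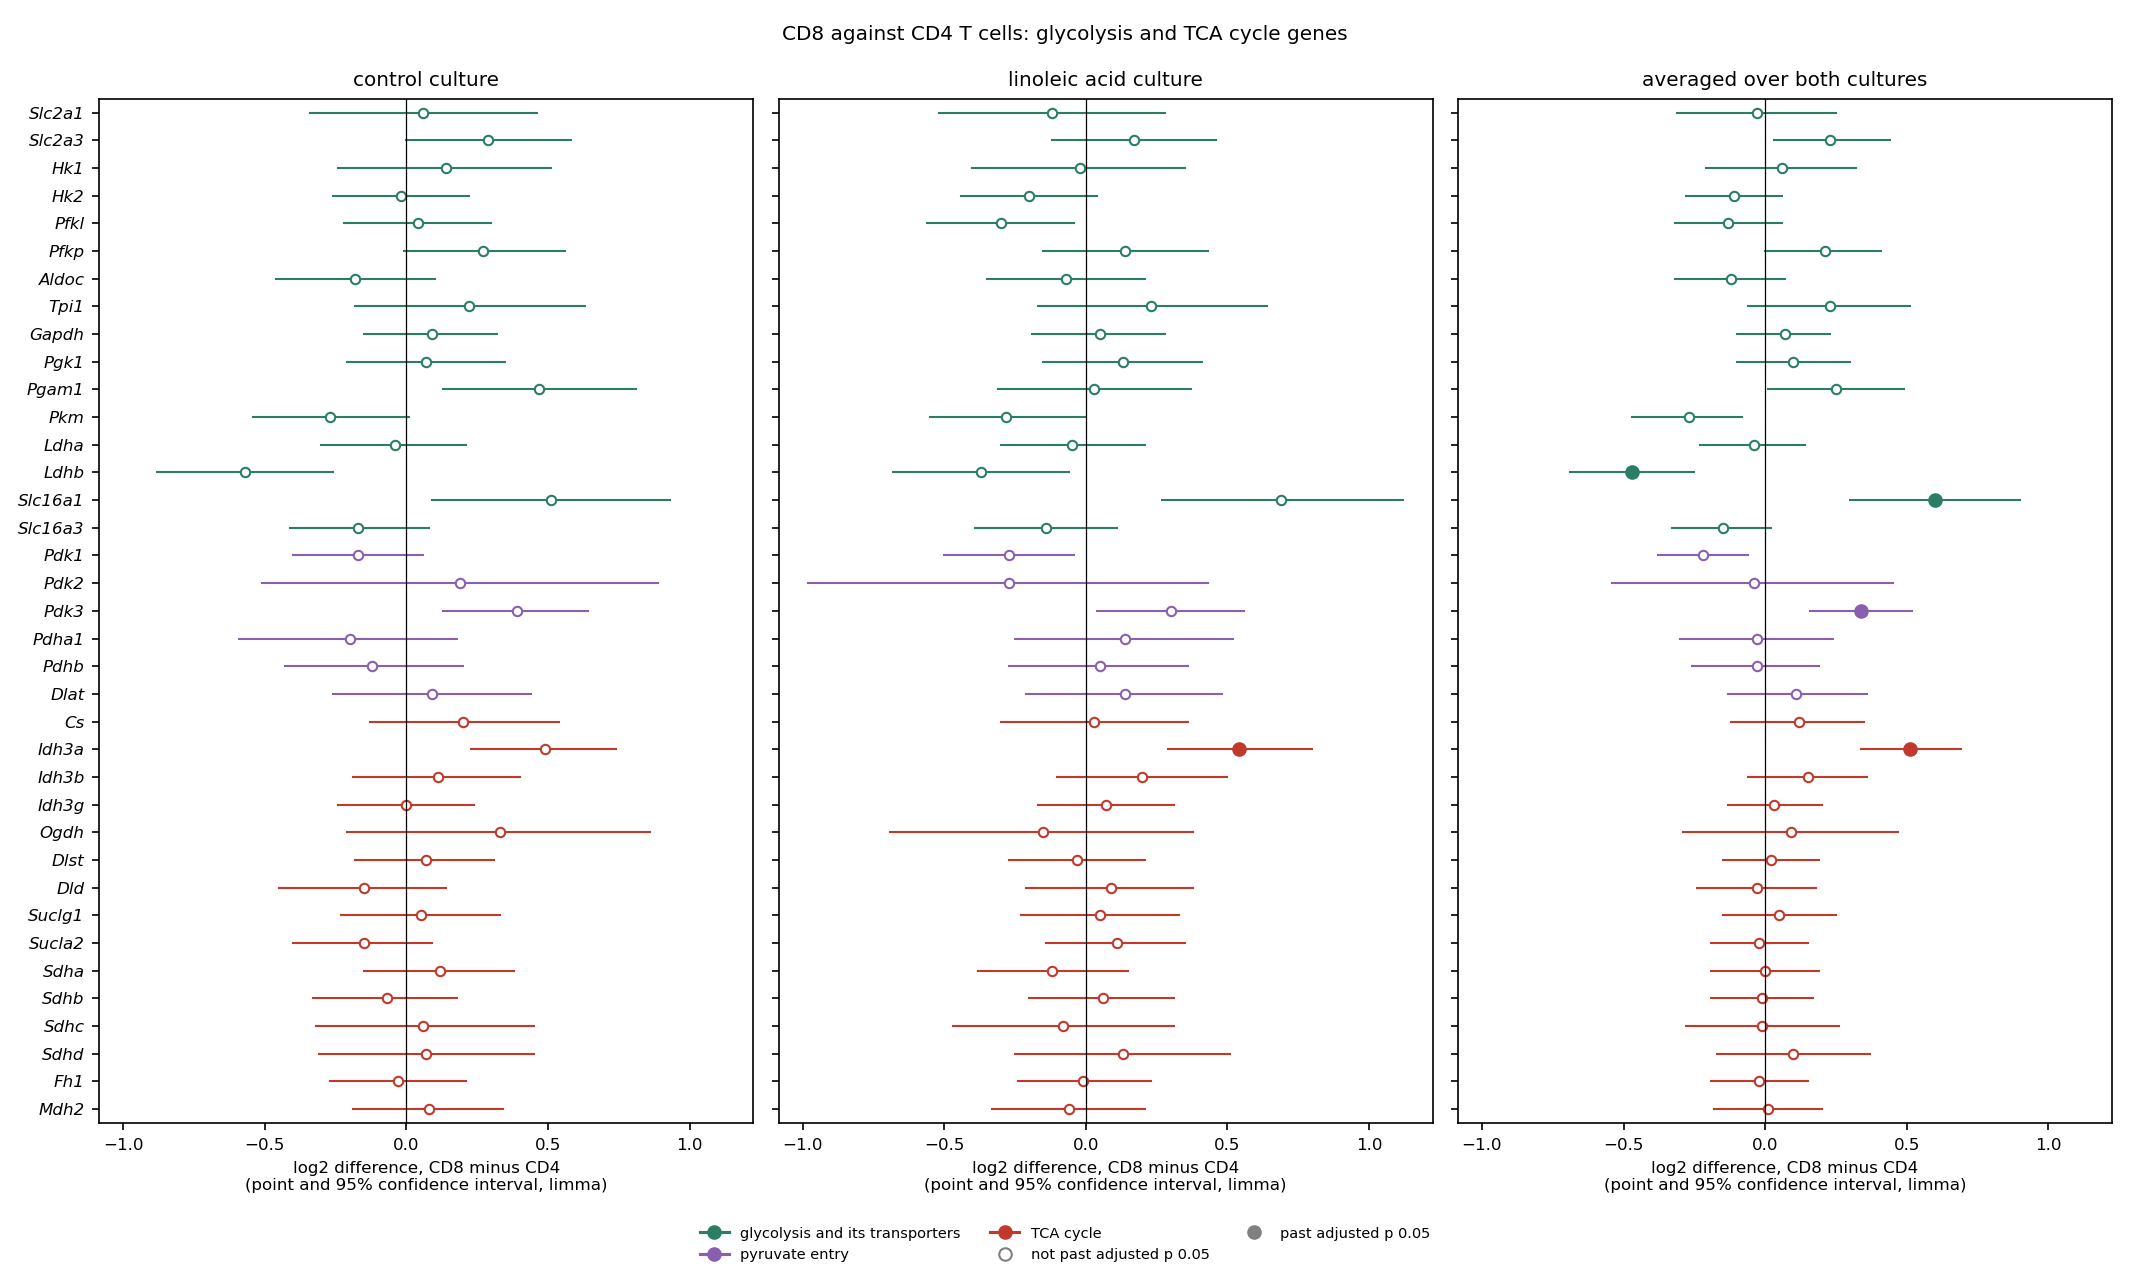
Log2 difference, CD8 minus CD4, of the 37 tested members in control culture, in linoleic acid culture and averaged over both, as points with 95% confidence intervals from limma, all panels on 1 scale. Filled points passed an adjusted p of 0.05: none in control culture, Idh3a in linoleic acid culture, and Idh3a, Slc16a1, Pdk3 and Ldhb in the average.

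Other genes of these pathways and their regulators were counted from lists chosen with earlier results of these data known. In the averaged comparison 0 of 29 other glycolysis genes, 0 of 9 other pyruvate genes and 0 of 6 pentose phosphate genes passed, 2 of 23 other TCA genes were lower in CD8, and of 28 regulators 1 was higher and 2 were lower, again beside 4.71% of all genes. At an unadjusted p under 0.05 (limma) the lists without a passing gene held 4, 0 and 0, beside 14.4% of all genes. With the replicate block, 2 other glycolysis genes passed, Adpgk (-0.34, adjusted p = 0.02) and Ugp2 (-0.41, 0.0104), both lower in CD8. Myc, the transcription factor that raises glycolytic genes on activation, measured 7.43, 7.59 and 7.48 in CD4 control arrays, 7.45, 7.84 and 7.83 in CD4 linoleic acid arrays, 8.05, 8.55 and 8.13 in CD8 control arrays and 8.05, 8.26 and 8.04 in CD8 linoleic acid arrays. Every CD8 array was above every CD4 array, and the difference was 0.58 ± 0.11 (1.49-fold, limma adjusted p = 0.00468). It ended only without all arrays numbered 2 (adjusted p = 0.111). Hif1a, the oxygen-regulated activator of glycolytic genes, measured 8.66, 8.72 and 8.85 in CD4 control arrays, 8.68 and 8.88 in CD4 linoleic acid replicates 1 and 3 with the highest of all 12 values in replicate 2, 8.07, 8.56 and 8.31 in CD8 control arrays and 8.16, 8.41 and 8.09 in CD8 linoleic acid arrays. Every CD8 array was below every CD4 array, with a difference of -0.53 ± 0.10 (1.44-fold lower, adjusted p = 0.00639), which did not pass with the mean of its probe sets (-0.39, 0.0598) or without the arrays numbered 2 (0.0613) or 3 (0.148).

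Pck2, the mitochondrial enzyme that turns oxaloacetate into phosphoenolpyruvate, measured 6.40 to 6.99 in CD4 and 5.83 to 6.38 in CD8 arrays. It was lower by a log2 difference of -0.53 ± 0.12 (limma adjusted p = 0.0153), and fell short without the arrays numbered 2 (0.296) or 3 (0.077). Sdhaf1, an assembly factor of succinate dehydrogenase, measured 7.11 to 7.59 in CD4 and 6.61 to 7.21 in CD8 arrays, which overlapped through CD8 control replicate 2. Its difference of -0.46 ± 0.11 (adjusted p = 0.0259) fell short without CD4 control replicate 2 (0.0504) or 3 (0.0716), CD4 linoleic acid replicate 2 (0.0735) or 3 (0.0614), CD8 control replicate 1 (0.068) or 3 (0.0628), CD8 linoleic acid replicate 3 (0.0516), or the arrays numbered 1 (0.0567), 2 (0.142) or 3 (0.302). Epas1, a relative of Hif1a, measured 5.38, 4.85 and 4.76 in CD4 control arrays and had means of 5.41 in treated CD4, 4.65 in control CD8 and 4.74 in treated CD8 T cells. The mean lay below the background level of 5.11 in every group but treated CD4, so the size of its difference is uncertain. The difference of -0.51 ± 0.13 (adjusted p = 0.0427) passed without CD4 control replicate 3 or CD8 linoleic acid replicate 1 and fell short without CD4 control replicate 1 (0.0895) or 2 (0.0566), CD4 linoleic acid replicate 1 (0.107), 2 (0.0565) or 3 (0.061), CD8 control replicate 1 (0.0625), 2 (0.082) or 3 (0.117), CD8 linoleic acid replicate 2 (0.0894) or 3 (0.0833), the arrays numbered 1 (0.0554), 2 (0.301) or 3 (0.177), with no filter (0.0675) and after a repeated quantile normalization (0.0538). Within a culture, Myc passed in control culture (0.74, adjusted p = 0.0177) and Hif1a in linoleic acid culture (-0.63, 0.0369). The replicate block added Rptor in control culture (0.46, adjusted p = 0.0404), and Epas1 (-0.67, 0.00235), Pck2 (-0.65, 0.00369), Nnt (-0.54, 0.0261) and Adpgk (-0.46, 0.0375) in linoleic acid culture. Myc in control culture fell short without CD8 control replicate 2 (0.0995), CD4 control replicate 1 (0.0691) or 3 (0.072), or without the arrays numbered 2 (0.349) or 3 (0.17). Hif1a in linoleic acid culture fell short without CD8 control replicate 3 (0.0586), CD4 control replicate 2 (0.0576) or 3 (0.0503), CD4 linoleic acid replicate 2 (0.205) or 3 (0.122), CD8 linoleic acid replicate 1 (0.0808) or 3 (0.124), or the arrays numbered 1 (0.0679), 2 (0.351) or 3 (0.405). It also fell short with no filter (0.0601), after a repeated quantile normalization (0.0671), with arrays at the same median (0.0624) and with the mean of its probe sets (0.311).

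**Figure D3:**
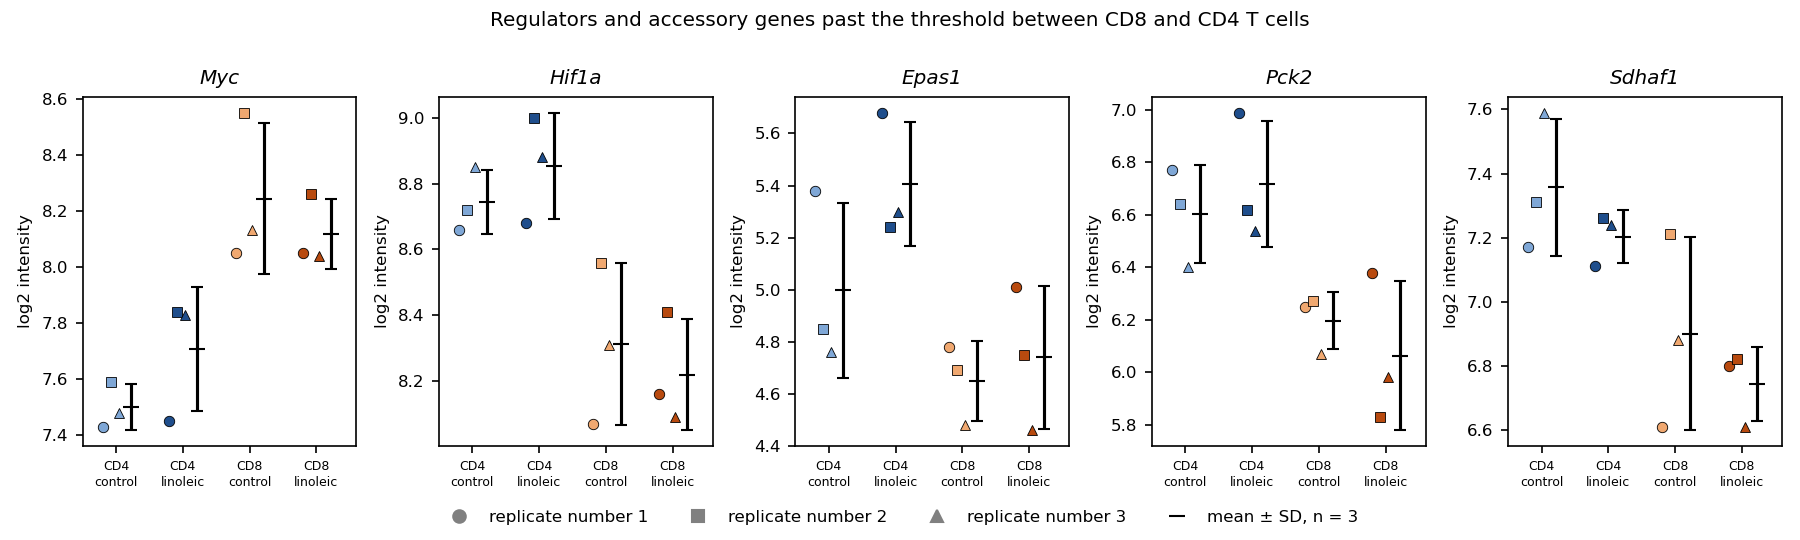
Log2 intensity on each of the 12 arrays for the 5 genes of the other pathway and regulator lists that passed between CD8 and CD4 T cells averaged over both cultures, with mean ± SD of 3 arrays beside the points and an axis range for each panel. Myc lies higher in every CD8 array, Hif1a and Pck2 lower in every CD8 array, and Epas1 and Sdhaf1 overlap.

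Linoleic acid moved 0 of the 37 members past the threshold in CD4 T cells, in CD8 T cells or on average. In limma without the replicate block, 0 of all 14323 genes passed in any of these (0%). At an unadjusted p under 0.05 there were 2 members in CD4 T cells, 1 in CD8 T cells and 1 on average, against 2.6%, 5.08% and 4.84% of all genes. With the replicate number as a block, 1 (0.00698%), 1 (0.00698%) and 26 (0.182%) genes passed, 0 of them members, and 2, 3 and 3 members had an unadjusted p under 0.05, against 5.61%, 13.5% and 9.75% of all genes. Without CD8 linoleic acid replicate 3, 1 gene passed on average, and it was no member. The averaged differences of the members ran from -0.21 to 0.12, and their 95% confidence intervals together from -0.71 to 0.32. The low end of -0.71 lay in pyruvate entry, beside -0.44 for glycolysis and -0.47 for the TCA cycle. Pdk2, of pyruvate entry, stood at 0.02 ± 0.16 without CD8 linoleic acid replicate 3. Intervals of this width, from few arrays, do not show that the members are unmoved.

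In CD4 T cells the members with the smallest p were in the TCA cycle. Dld, the dehydrogenase shared by the pyruvate and 2-oxoglutarate complexes, measured 8.16, 7.87 and 8.39 in control and 7.96, 7.79 and 7.68 in linoleic acid arrays, a difference of -0.33 ± 0.14 (unadjusted p = 0.0302 and adjusted p = 1 in limma), and replicate 2 of control overlapped with the treated arrays. Sucla2 measured 6.50, 6.42 and 6.72 in control and 6.39, 6.27 and 6.16 with linoleic acid. These arrays did not overlap, and the difference was -0.27 ± 0.11 (unadjusted p = 0.0322, adjusted p = 1, limma). Fh1, the fumarate hydratase, at -0.17 was the other of 2 members without overlap, against 7.44% of all genes; its arrays touched at 7.14 when rounded. Sdhb differed by -0.23, Ldhb by -0.23, Pfkl by 0.18, Pgk1, a phosphoglycerate kinase, by -0.16, Pdhb by -0.15 and Pdk3 by -0.11. CD4 control replicate 3 was the highest of the CD4 arrays for Dld, Sucla2 and Pdhb, and without it Dld stood at -0.20, Sucla2 at -0.19, Pgk1 at -0.07 and Pdhb at 0.02. Without CD4 control replicate 1, Ldhb stood at -0.11, Pdk3 at -0.03 and Sdhb at -0.15. Without linoleic acid replicate 2 of CD4, Pfkl stood at 0.10, and without its replicate 3 Ldhb stood at -0.14.

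In CD8 T cells Pgam1 had the smallest p. It measured 6.99, 6.98 and 7.13 in control and 6.67, 6.87 and 6.31 in linoleic acid arrays, which did not overlap, with a difference of -0.42 ± 0.16 (unadjusted p = 0.0201, limma adjusted p = 0.757), and -0.26 without CD8 linoleic acid replicate 3. The other probe set of Pgam1 gave 0.41 ± 0.20 for the same comparison, the opposite direction, so no direction is given for this gene. Arrays did not overlap for 5 members, against 9.01% of all genes: the values of Hk2 (-0.23), Pfkl (-0.16) and Pdk1 (-0.12) lay lower with linoleic acid, those of Slc16a3 (0.13) higher and near the background of the array, and Pgam1, by the 1 probe set above, was the other. Hk2 was near the background too, with a mean of 5.11 in treated CD8 T cells against the level of 5.11. Several of the larger differences rested on CD8 linoleic acid replicate 3: Pdk2 differed by -0.44 with it and 0.02 without it, Ogdh by -0.31 and 0.07, Cs by -0.28 and -0.06, Sdhc by -0.26 and -0.09, Sdha by -0.22 and -0.13, Pfkl by -0.16 and -0.07, and Pfkp by -0.21 and -0.16. Pdk3 stood at -0.20, and -0.14 without that array.

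Averaged over both cell types, all 15 TCA members lay below control, with a median log2 difference of -0.14, and so did 11 of 16 glycolysis members (median -0.06) and 5 of 6 of pyruvate entry (median -0.07). Over all genes 63.1% lay below, with a median of -0.04, and of the 23 other TCA genes 19 did, with a median of -0.06. With each array shifted to the same median, 12 of 15 TCA members lay below (median -0.09) and 46% of all genes did (median 0.01), and after a repeated quantile normalization 12 of 15 (median -0.10) and 59.9%. Without the arrays numbered 3 the TCA count was 12 of 15, with a median of -0.06, and without CD8 linoleic acid replicate 3 alone it was 14 of 15, with a median of -0.11. None of these members passed singly. The 15 were measured on the same arrays and are not separate observations. Their mean deviation from each gene's mean over the 12 arrays was -0.11 to 0.14 on control arrays. On linoleic acid arrays it was -0.13 to 0.06, so the arrays overlapped. It rose with linoleic acid in CD4 replicate 2 (-0.11 to -0.08) and CD8 replicate 1 (0.02 to 0.06) and fell in the other same-numbered pairs. Dld stood at -0.21 (interval -0.42 to -0.00), Sdhb at -0.17 and Fh1 at -0.16. Dld and Fh1 were the lower in 6 of 6 same-numbered pairs, as were Idh3a at -0.14 and, outside the TCA cycle, Pfkp of glycolysis. Of the others, Pgam1 stood at -0.20 (-0.12 without CD8 linoleic acid replicate 3, and 0.38 by its other probe set), Pdk3 at -0.16, Hk2 and Pfkp at -0.14 and Pdk1 at -0.07, with adjusted p values between 0.925 and 0.927.

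By cell type, 11 of 15 TCA members lay below control in CD4 T cells (median -0.12, beside 51.4% of all genes and a median of -0.00) and 14 of 15 in CD8 T cells (median -0.11, beside 63.1% and -0.06). In CD8 T cells the count depended on the scaling, with 10 of 15 after a repeated quantile normalization and 11 of 15 with arrays at the same median, when 45.7% of all genes lay below. The 23 other TCA genes did not share the shift in CD4 T cells, where 10 lay below and 13 above (median 0.02). In CD8 T cells 19 of the 23 lay below (median -0.13). Among all 37 members 25 lay below control in CD4 T cells (median -0.06) and 31 in CD8 T cells (median -0.10); in CD8 T cells this was 24 and 22 under those scalings and 28 without CD8 linoleic acid replicate 3. B cell and myeloid markers lay on the other side, with 11 of 13 and 12 of 15 tested above control on average (medians 0.10 and 0.14, with 0 past the threshold), and their part in the members' values was not tested.

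**Figure D4:**
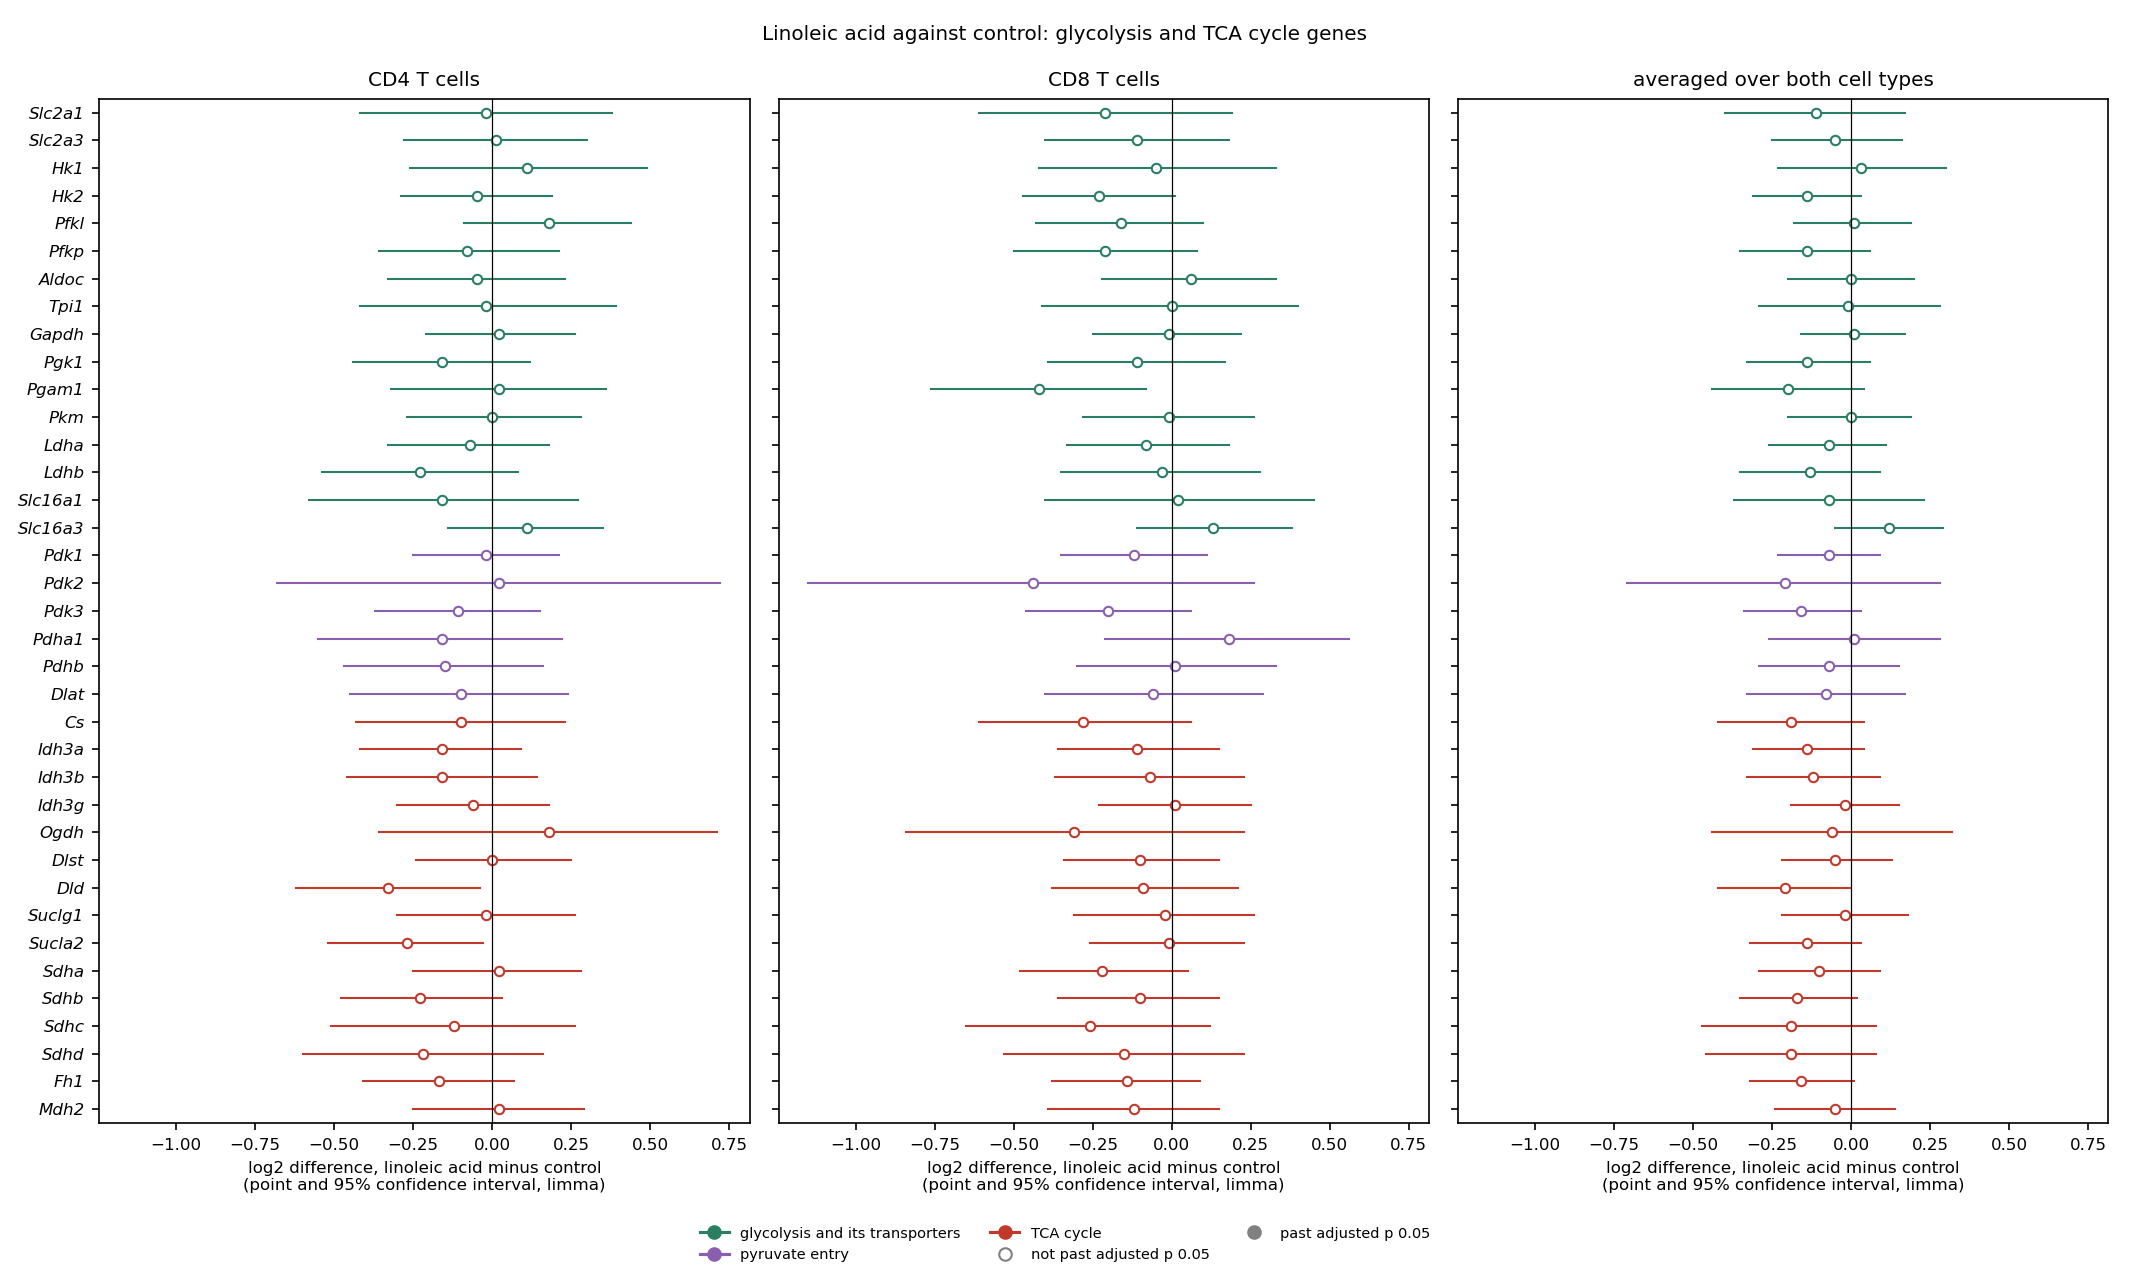
Log2 difference, linoleic acid minus control, of the 37 tested members in CD4 T cells, in CD8 T cells and averaged over both, as points with 95% confidence intervals from limma, all panels on 1 scale. No point is filled, since none passed an adjusted p of 0.05, and the 15 TCA members lie left of 0 in the average as the arrays were deposited.

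**Figure D5:**
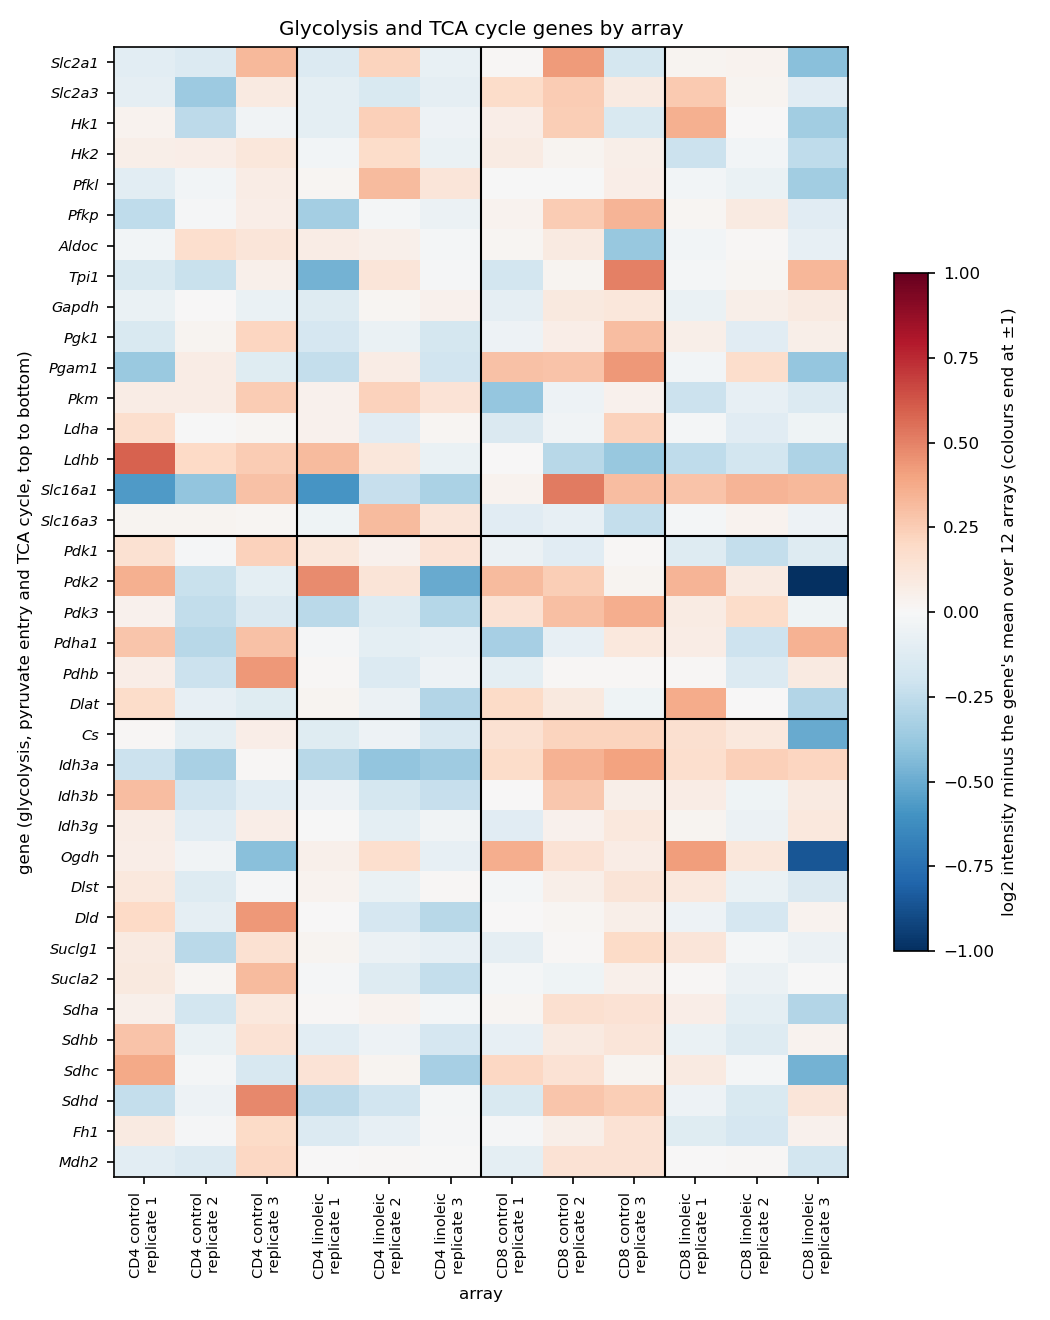
Log2 intensity of the 37 tested members on each of the 12 arrays minus the gene's mean over the 12, with colours that end at -1 and 1. The deepest blue cells are Pdk2 (4.79) and Ogdh (7.89) in CD8 linoleic acid replicate 3, and Idh3a is red in the CD8 columns. Slc16a1 is red there except in CD8 control replicate 1 (7.92, near its mean of 7.89), and also in CD4 control replicate 3 (8.18).

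The response to linoleic acid did not differ detectably between the cell types for any member. In limma 0 of 37 members and 0 of 14323 genes passed for the difference of the effects, CD4 minus CD8, with or without the replicate block. At an unadjusted p under 0.05 there were 0 members against 2.35% of all genes, and with the block 1 against 8.3%. The nearest were Pfkl at 0.34 (interval -0.03 to 0.71), Sucla2 at -0.26 (interval -0.61 to 0.09) and 1 probe set of Pgam1 at 0.44 (interval -0.04 to 0.92), all with an adjusted p of 0.953. The other probe set of Pgam1 gave -0.06. Ogdh stood at 0.48, Pdk2 at 0.46, Pdha1 at -0.34, Sdha at 0.23 and Hk2 at 0.18, and without CD8 linoleic acid replicate 3 they stood at 0.11, 0.00, -0.20, 0.14 and 0.13, Pfkl at 0.24 and Pgam1 at 0.28. Intervals of this width do not show that the cell types respond alike.

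Of the other pathway genes and regulators, 0 passed for linoleic acid in limma, and of the 29, 9, 23, 6 and 28 tested in the 5 lists, 2 in CD4 and 5 in CD8 T cells had an unadjusted p under 0.05, beside 2.6% and 5.08% of all genes. The smallest unadjusted p was that of Ppargc1b, a coactivator of mitochondrial genes, in CD8 T cells, at -0.43 ± 0.13 (unadjusted p = 0.00567, adjusted p = 0.757), beside -0.03 ± 0.13 in CD4 T cells. The difference between these effects, 0.40 ± 0.18, did not pass (adjusted p = 0.953). Mpc1, a subunit of the mitochondrial pyruvate carrier, stood at -0.42 ± 0.18 in CD4 T cells (unadjusted p = 0.0365, adjusted p = 1).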

How the data were processed

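The 12 arrays were deposited by the authors as log2 intensities of 41345 probe sets; the submitters' processing notes name RMA, and a version, summary level or genome build is not given in the sources used here. The deposited log2 values were used without further normalization. Probe sets with a single symbol in the platform annotation (23521; 1814 carried several and 16010 none) named 22180 genes, each represented by its probe set of highest mean over the 12 arrays, and the 14323 genes at or above the 40th percentile of probe set means (log2 4.28) were tested. Group contrasts were fitted on all 12 arrays with limma 3.58.1 in R 4.3.3 (lmFit and eBayes, two-sided, 8 residual degrees of freedom). Benjamini-Hochberg adjustment ran over all genes tested, with a threshold of 0.05. The code was tested on simulated data with independent arrays and with planted differences larger than those of the members that passed. That simulation checks the code and gives no error rate for differences of the size seen here. Background was gauged from 1405 chemosensory receptor genes. The number of arrays limits the precision.

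The members and lists were chosen with earlier results of these data known. Named with values were members past the threshold, those with the smallest p (3 of glycolysis, 2 of pyruvate entry and 3 of the TCA cycle), those whose arrays do not overlap, and the transporters, kinases and succinate dehydrogenase subunits; other pathway genes were named where they passed, and Ppargc1b, Mpc1 and the genes added by the block were singled out after their values were seen.

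Whether replicate numbers pair the arrays was checked through the correlation, across genes, of deviations from group means. It was 0.61, 0.19 and 0.32 between the CD4 groups, 0.43, 0.19 and 0.42 between the CD8 groups and 0.58, 0.26 and 0.52 between the cell types with linoleic acid, so the numbers were taken as pairs there; the labels do not say what a number marks. Alternatives were a replicate block, other filters, scalings, variance estimates, array weights, the mean of probe sets, the compared groups alone and leaving out arrays.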

Additional observations from a re-analysis of the deposited data

How the results depend on the processing

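With the replicate number as a block, the genes past the threshold numbered 630 for CD8 against CD4 in control culture (280 without it), 798 in linoleic acid culture (291), 1322 on average (674), and 1, 1 and 26 for linoleic acid in CD4 T cells, in CD8 T cells and on average (0 each). For control culture the same-numbered arrays correlated at 0.54, -0.01 and 0.42. Pairs taken in the other comparisons would link these arrays too, but with replicate 2 at -0.01 their pairing was left undecided. In control culture 4 of 6 arrays correlated best with their own number, and the count was also 4 of 6 between the CD4 groups. It was 6 of 6 between the CD8 groups and between the cell types with linoleic acid. This count alone therefore does not separate control culture from the CD4 groups, and the main fit used no block for any comparison. Where the numbers were taken as pairs, the main fit ignores that pairing, so its p values are to be read beside those of the block. The block gave 2 members in control culture (Ldhb, adjusted p = 0.00762, and Idh3a, 0.021), 2 in linoleic acid culture, and Pkm (0.0422) as an added member on average; it changed no other call on a member.

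Array weights gave 1 gene for linoleic acid in CD4 T cells, 213 in CD8 T cells and 3 on average, and 2299 genes and 6 members for CD8 against CD4 in linoleic acid culture, 2 members in control culture, and 1473 genes and 6 members on average (Pkm, adjusted p = 0.044, and Pdk1, 0.025, beside the 4). The repeated quantile normalization and arrays at the same median each gave 1 gene for linoleic acid on average. In control culture the stricter filter gave 1 member (Idh3a) and arrays at the same median gave 1 (Ldhb). With the compared groups alone, linoleic acid culture gave 138 genes and 0 members. The averaged Pgam1 difference for linoleic acid turned from -0.20 to 0.09 with the mean of its probe sets, Pdhb in CD4 T cells ran from -0.31 to 0.02 with arrays left out (0.02 without CD4 control replicate 3, 0.01 without all arrays numbered 3), and Pdk2 in CD8 T cells from -0.73 to 0.02 (0.02 without CD8 linoleic acid replicate 3). The causes were not tested.

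Leaving out arrays or replicate numbers gave 65 to 230 genes and 0 to 2 members for CD8 against CD4 in control culture, 62 to 322 and 0 to 1 in linoleic acid culture and 172 to 744 and 0 to 4 on average. On average the members numbered 2 without CD4 control replicate 2, CD4 linoleic acid replicate 1, CD8 control replicate 2 or 3 or CD8 linoleic acid replicate 2, and 1, 0 and 2 without the arrays numbered 1, 2 and 3; the genes numbered 172 and 398 without those numbered 2 and 3. Single arrays that moved a gene count by over 1.5 times were CD4 control replicate 3 (184), CD8 control replicate 1 (176) and 2 (179) in control culture, and CD4 linoleic acid replicate 1 (179) and 2 (150) in linoleic acid culture; without the arrays numbered 2 and 3 these counts were 65 and 146, and 62 and 139. For linoleic acid these gave 0 to 1 genes in CD4 T cells, 0 to 0 in CD8 T cells and 0 to 1 on average, and 0 to 0 for the difference of effects, with 0 members throughout. Of 559 values of members under the other settings, 541 kept direction and side of the threshold, as did 692 of 729 with arrays left out. Most of these values belong to members that did not pass in the main fit, so the counts say little about the calls. The averaged calls held in 22 of 23 alternatives for Idh3a, 20 of 23 for Ldhb, 15 of 23 for Slc16a1 and 10 of 23 for Pdk3. The call on Idh3a in linoleic acid culture held in 9 of 18.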

Other observations

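Pgam1 was represented by 2 probe sets that did not move together. The one with the higher mean gave -0.20 ± 0.11 for linoleic acid averaged over both cell types, and the other gave 0.38 ± 0.14 (unadjusted p = 0.0168, limma adjusted p = 0.92). In CD4 T cells the values were 0.02 and 0.35, and in CD8 T cells -0.42 and 0.41. For CD8 against CD4 in control culture they were 0.47 and -0.05. The Gapdh probe sets, 3 in number, gave 0.01, -0.01 and -0.06 for linoleic acid on average, and the Slc2a1 probe sets -0.11 and -0.18.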
